A study of Mus musculus with 8 samples.

Results

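The genes described here are 10 that make and desaturate fatty acids: *Acly*, *Acss2*, *Acaca*, *Fasn*, *Scd1*, *Scd2*, *Elovl6*, *Fads1*, *Fads2* and *Srebf1*. They were chosen by name for their place in the pathway, and each matched 1 of the 55536 gene identifiers in the count tables. The mRNA came from cultured OT-I CD8+ T cells, with 4 libraries from cells given GC7 and 4 from cells without it (Mock). GC7 inhibits deoxyhypusine synthase, the enzyme that starts the hypusination of the translation factor eIF5a, and the study states that the compound also acts independently of eIF5a. In both groups the cells carried the OT-I T cell receptor transgene, which recognises the ovalbumin peptide SIINFEKL, on a Rag-1KO C57BL/6 background, so that other lymphocytes with rearranged receptors are not made. Lymph node donors were 5 to 12 weeks old. All cultures received 100 nM SIINFEKL (N4) peptide for 2 days, were washed, and were then kept for 2 days in 20 ng/mL recombinant human IL-2, either with 10 µM GC7 or, for Mock, with the same volume of the acetic acid vehicle. The study calls the libraries biological replicates, but the labels do not name their donors, so the p-values below measure the spread between these libraries, which may in part be technical.

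Fatty acid synthesis starts from cytosolic acetyl-CoA, which ATP citrate lyase (*Acly*) makes from citrate and acetyl-CoA synthetase (*Acss2*) makes from acetate. Acetyl-CoA carboxylase (*Acaca*) turns it into malonyl-CoA, fatty acid synthase (*Fasn*) builds palmitate, *Elovl6* lengthens palmitate, stearoyl-CoA desaturases (*Scd1*, *Scd2*) make monounsaturated fatty acids, and *Fads1* and *Fads2* desaturate polyunsaturated ones. *Srebf1* encodes SREBP-1, a membrane-bound transcription factor that drives many of these genes once it is cut free, and activated T cells raise this pathway as they grow and divide.

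The deposited values are raw read counts per gene, with library totals of 20045041 to 25284730 for Mock and 17528776 to 23449164 for GC7. Levels are given as CPM, a gene's counts relative to the total of its library, scaled by TMM, edgeR's factor for library composition, which cannot see a change in the total mRNA of a cell. Genes above 3 CPM in at least 4 of the 8 libraries were tested, which left 11189 genes and kept all 10 named above. Their counts lay between 174 and 43070 per library, and intervals below cover the spread between libraries, not amplification before sequencing. The summed level of 5 CD8 T cell markers was 2350 to 2880 CPM in Mock libraries, against 2380 to 2560 CPM with GC7, a sum over opposite moves: 1 marker was called higher (*Cd8a*, 703 to 978 CPM) and 2 lower, among them *Cd3g* (620.0 to 479 CPM). Adipocyte markers, which mark a cell type rich in these enzymes, summed to at most 0.228 CPM over 5 genes in any library, with *Lep* at 0 throughout. Of the other lists, 5 B cell markers summed to 7.02 to 10.1 CPM in Mock libraries, against 4.63 to 5.93 CPM with GC7, with *Ms4a1* and *Pax5* at 0. For 5 dendritic cell markers the sums were 4.19 to 5.91 CPM and 0.446 to 1.14 CPM, with *Clec9a* and *Siglech* at 0. These sums were mostly 1 gene each, *Cd79b* (7.49 to 4.42 CPM) and *Xcr1* (5.14 to 0.631 CPM), while *Cd79a* (0.747 and 0.868) and *Flt3* (0.143 and 0.141) did not follow them. The 5 stroma markers, at 1.03 to 1.79 CPM in Mock and 0.535 to 0.794 CPM with GC7, were also separate. The part of these markers in the results was not tested. Markers of CD4 T cells, myeloid cells, NK cells, endothelium and erythroid cells summed to at most 2.43 CPM per list in any library.

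Of the 10 genes, 9 were lower in GC7-treated than in Mock cells at an adjusted p under 0.01 and 0 were higher, whereas 23.5% of all tested genes were lower and 23.0% higher by the same rule (edgeR's quasi-likelihood test, adjusted over all tested genes). The decrease exceeded 2-fold for *Scd1*, *Fads2* and *Acss2*, 3 of 10 genes against 5.31% of all tested genes, and 0 of 10 rose by more than 2-fold, which 3.17% of tested genes did. Every GC7 library lay below every Mock library for 9 of the 10 genes, which held for 27.5% of all tested genes, and the opposite order, found for 28.1% of all tested genes, was found for 0 of the 10. The median log2 fold change was -0.75 over the 10 genes and 0.02 over all tested genes. Together the 10 genes took 0.360% ± 0.0386 of all counts in Mock and 0.212% ± 0.0194 in GC7 libraries (SD, n = 4 each). In these bulk samples, fewer cells with a transcript and less of it per cell cannot be told apart.

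**Figure D1:**
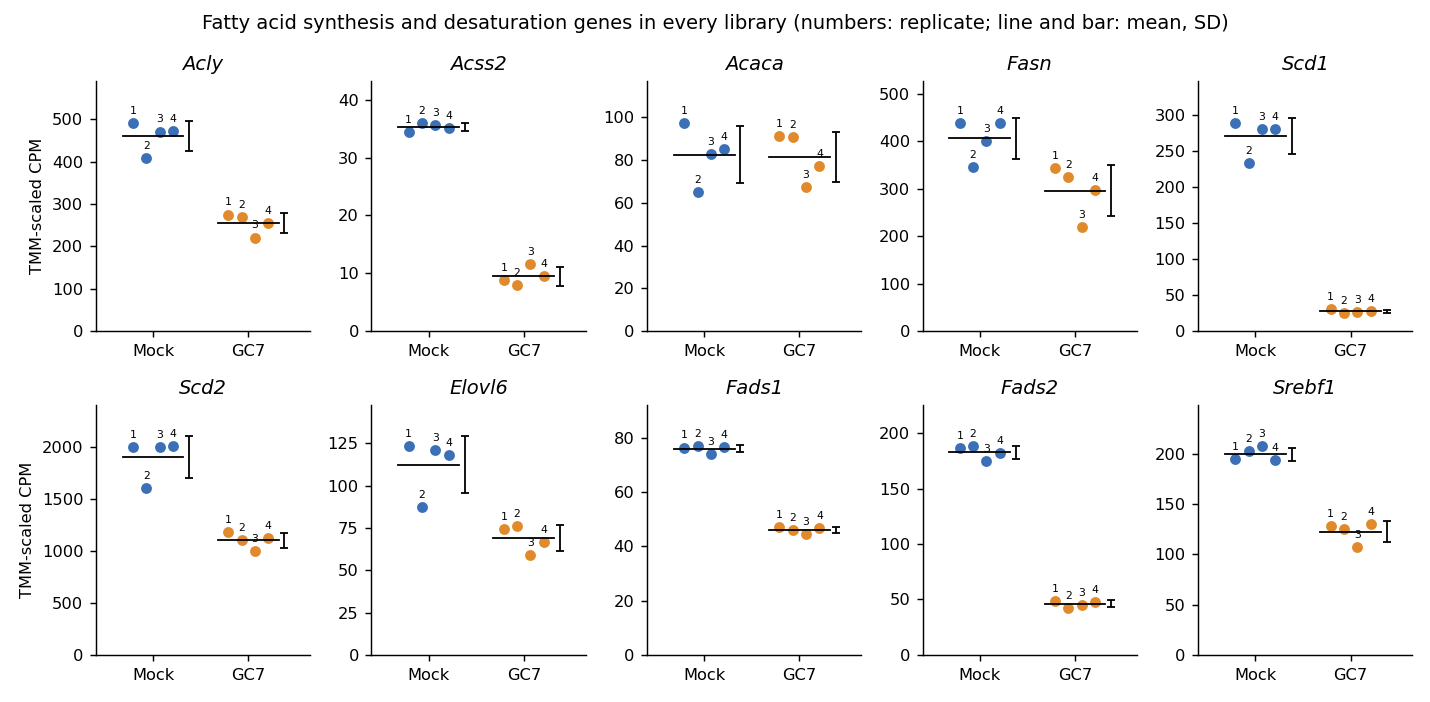
TMM-scaled CPM of each gene in every library, with a linear axis from 0 in each panel, points numbered by replicate, horizontal lines at the group mean and bars of 1 SD (n = 4). The ranges of Mock (blue) and GC7 (orange) are separate for 9 genes and overlap for *Acaca*, and *Scd1* shows the widest gap relative to its own level, from 233 to 289 CPM in Mock to 24.6 to 31.0 CPM in GC7.

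**Figure D2:**
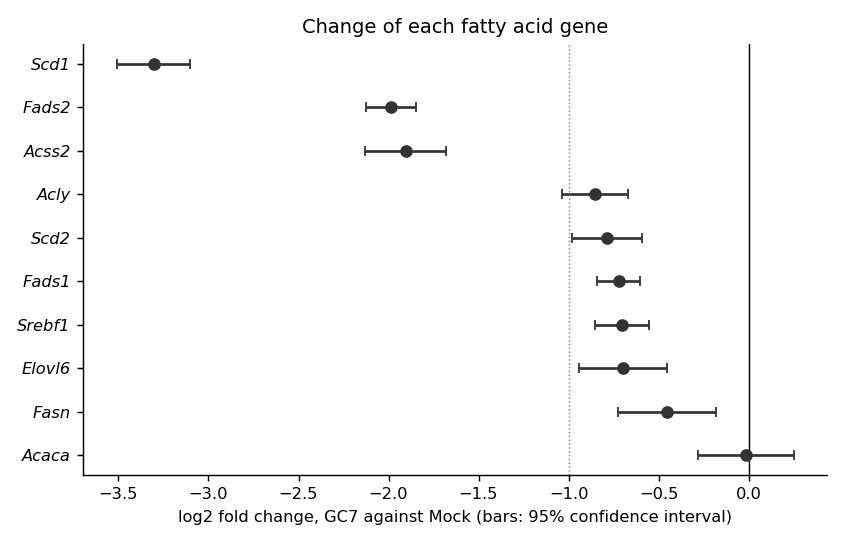
Log2 fold change of GC7 against Mock for each gene from edgeR, with 95% confidence intervals. *Scd1*, *Fads2* and *Acss2* lie to the left of the dotted line that marks a 2-fold decrease, and the interval of *Acaca*, from -0.28 to 0.25, is the only one that includes 0.

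Both enzymes that supply cytosolic acetyl-CoA fell, the acetate-using one more. *Acly* (ENSMUSG00000020917, GRCm38 chromosome 11, 100476353 to 100528000, minus strand) stood at 492, 409, 471 and 472 CPM in Mock replicates 1 to 4 and at 275, 269.6, 221 and 254 CPM in GC7 replicates 1 to 4. Mock replicate 2 and GC7 replicate 3 were the lowest of their groups, and the groups did not overlap. The mean fell from 461 ± 36.1 to 255 ± 24.4 CPM, which is a log2 fold change of -0.85 (SE 0.0832, adjusted p = 3.22e-06, edgeR). *Acss2* (ENSMUSG00000027605, chromosome 2, 155517948 to 155585724, plus strand) stood at 34.4, 36.0, 35.6 and 35.1 CPM in Mock and at 8.76, 7.92, 11.7 and 9.48 CPM in GC7 libraries. The Mock libraries lay close together, with a coefficient of variation of 2.02%, while GC7 replicate 3 was the highest of a group that varied by 17.0%. The fall from 35.3 ± 0.713 to 9.46 ± 1.60 CPM was 3.74-fold, a log2 fold change of -1.90 (SE 0.103, adjusted p = 2.11e-08, edgeR). Exons of *Acss2* share 395 bases with *Gss* and 197 bases with *Ggt7* on the opposite strand, and the strand setting of the counting was not stated, so reads in those stretches cannot be told apart. *Gss*, a glutathione synthesis gene, stood at 21.2 ± 2.00 CPM in Mock and 25.8 ± 4.57 CPM in GC7 (adjusted p = 0.0591, edgeR). *Ggt7* stood at 7.89 ± 0.722 and 5.91 ± 0.713 CPM, a log2 fold change of -0.42 in the direction of *Acss2* (adjusted p = 0.0105, edgeR).

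Of the enzymes that build palmitate, *Fasn* fell and *Acaca* did not pass the test. *Acaca* (ENSMUSG00000020532, chromosome 11, 84129672 to 84401651, plus strand) was at 97.4, 65.0, 82.6 and 85.0 CPM in Mock and at 90.9, 90.7, 67.1 and 77.1 CPM in GC7 libraries. The range of the GC7 libraries lay within that of the Mock libraries, with Mock replicate 2 and GC7 replicate 3 lowest of their groups. The means were 82.5 ± 13.4 and 81.4 ± 11.5 CPM, with a log2 fold change of -0.02 (95% interval -0.28 to 0.25, adjusted p = 0.917, edgeR). With 4 libraries a group, changes within this interval remain compatible with the data, and the interval is not a limit of detection. The sign of the log2 fold change turned without Mock replicate 1 (0.06), GC7 replicate 3 (0.07) or GC7 replicate 4 (0.01). A near-identical gene model, *Gm5182*, matches *Acaca* transcripts at 99.2% over 6118 bases and held 104 to 145 counts per library, with a log2 fold change of -0.08 (adjusted p = 0.672, edgeR), so the level of *Acaca* is uncertain to the extent that reads were split between them. *Fasn* (ENSMUSG00000025153, chromosome 11, 120805846 to 120824547, minus strand) was at 439, 346, 399 and 438 CPM in Mock and at 342, 325, 219 and 297 CPM in GC7 libraries. The lowest Mock library, replicate 2, lay just above the highest GC7 library, replicate 1, and GC7 replicate 3 was the lowest. The mean fell from 405 ± 43.6 to 296 ± 54.5 CPM, which is a log2 fold change of -0.45 (SE 0.125, adjusted p = 0.00759, edgeR). This call was lost without Mock replicate 1 (adjusted p = 0.0205), Mock replicate 3 (0.0142), Mock replicate 4 (0.0228) or GC7 replicate 4 (0.0199) in edgeR's test, and the log2 fold change then lay between -0.53 and -0.33 over all 8 omissions.

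As 9 of the 10 genes fell, the sequence just upstream of their annotated starts was searched for letters of known regulatory elements. RefSeq promoters (GRCm38.p6) were present for 7 of the genes, with 9 start sites in all, 3 of them in *Srebf1*. *Scd1*, *Scd2* and *Fads1* had no entry. The 250 bases before each start were read on both strands. *Acly* is printed because it alone held a near match to the sterol regulatory element, to which SREBP proteins bind, and *Fasn* because it held the most CCAAT boxes. Each runs 5′ to 3′ towards the gene, which lies on the minus strand, at chr11:100528001-100528250 for *Acly* and chr11:120824548-120824797 for *Fasn*. Capitals mark sterol element matches with up to 1 mismatch, GC boxes and CCAAT boxes on either strand.
Acly upstream: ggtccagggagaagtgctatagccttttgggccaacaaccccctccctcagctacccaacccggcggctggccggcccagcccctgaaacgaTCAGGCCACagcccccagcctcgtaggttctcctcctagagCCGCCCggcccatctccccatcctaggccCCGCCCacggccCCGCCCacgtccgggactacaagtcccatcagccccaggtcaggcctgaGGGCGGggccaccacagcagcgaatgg
Fasn upstream: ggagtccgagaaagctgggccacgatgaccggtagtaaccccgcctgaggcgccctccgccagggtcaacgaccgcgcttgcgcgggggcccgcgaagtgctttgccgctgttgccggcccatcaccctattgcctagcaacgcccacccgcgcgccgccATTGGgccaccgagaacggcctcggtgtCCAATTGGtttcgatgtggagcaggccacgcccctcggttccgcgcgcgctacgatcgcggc
The core of the sterol regulatory element, searched as TCACNCCAC, was found in 0 of the 9 promoters without mismatch and in 1.05% of 32851 mouse promoters. With up to 1 mismatch it was found in 1 of the 9, as TCAGGCCAC at positions -158 to -150 from the start of *Acly*, and in 20.7% of all promoters. The E-box CACGTG was in 0 of 9 (6.02% of all promoters). The GC box GGGCGG, a site for SP1-type factors, was in 5 of 9 (32.7%), 4 times each in *Acly* and *Acss2*. CCAAT, the NF-Y site, was in 4 of 9 (33.85%), 3 times in *Fasn*, where the last 2 overlap as CCAATTGG. Both counts include 2 start sites of *Srebf1*. No other overlap between motifs occurred in these stretches. These are letter matches within 250 bases, not measured binding sites.

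The elongase *Elovl6* (ENSMUSG00000041220, chromosome 3, 129532355 to 129638495, plus strand) fell as well. Its levels were 123, 87.3, 121 and 118 CPM in Mock and 74.2, 76.4, 59.3 and 66.95 CPM in GC7 libraries. Mock replicate 2 was again apart, below the other 3 Mock libraries but above all GC7 libraries. The mean went from 112 ± 16.9 to 69.2 ± 7.76 CPM, which is a log2 fold change of -0.70 (SE 0.112, adjusted p = 0.000194, edgeR). The copy *Gm11295*, 97.4% identical over 805 bases, held at most 1 count in any library.

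The stearoyl-CoA desaturases both fell, and by different amounts. *Scd1* and *Scd2* lie near each other on chromosome 19, and their shared coding exons are close in sequence. Over exons 3, 4 and 5, 537 of 570 aligned bases are identical (94.2%), and exon 4 differs at only 2 of 206 bases. Exon 3 is printed because it differs most per base, at 14 of 131 positions, shown in capitals. Both sequences are from GRCm38, 5′ to 3′ along the coding strand, *Scd1* from chr19:44403165-44403295 (minus strand) and *Scd2* from chr19:44298040-44298170 (plus strand).
Scd1 exon 3: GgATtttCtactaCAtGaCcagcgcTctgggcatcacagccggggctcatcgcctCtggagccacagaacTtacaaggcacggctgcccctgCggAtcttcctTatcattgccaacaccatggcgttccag
Scd2 exon 3: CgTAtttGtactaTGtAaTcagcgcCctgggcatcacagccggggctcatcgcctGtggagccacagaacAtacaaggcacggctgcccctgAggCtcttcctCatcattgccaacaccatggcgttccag
How reads that matched both genes were counted was not stated, so shared stretches leave some uncertainty in either level. *Scd1* (ENSMUSG00000037071, 44394455 to 44407879) was at 289, 233, 279.7 and 281 CPM in Mock and at 31.0, 24.6, 26.5 and 27.4 CPM in GC7 libraries. The lowest Mock library, replicate 2, was still far above the highest GC7 library, replicate 1. The mean fell 9.88-fold, from 271 ± 25.2 to 27.4 ± 2.66 CPM, which is a log2 fold change of -3.31 (SE 0.0925, adjusted p = 7.29e-11, edgeR). Only 56 of the 11189 tested genes (0.50%) had a lower fold change. *Scd2* (ENSMUSG00000025203, 44293674 to 44306864), the most abundant of the 10 genes, was at 2003, 1604, 2007 and 2009 CPM in Mock and at 1183, 1104, 1004 and 1126 CPM in GC7 libraries. Mock replicate 2 stood below 3 nearly equal Mock libraries, and the groups did not overlap. The mean fell 1.73-fold, from 1906 ± 201 to 1104 ± 74.6 CPM, which is a log2 fold change of -0.79 (SE 0.0886, adjusted p = 1.08e-05, edgeR). A further family member, *Scd3*, matches *Scd1* at 91.4% over 1053 bases and held at most 21 counts in any library.

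Both polyunsaturated fatty acid desaturases fell, *Fads2* more than *Fads1*, and both varied little between replicates. *Fads1* (ENSMUSG00000010663, chromosome 19, 10182888 to 10196877, plus strand) was at 76.3, 76.7, 74.1 and 76.7 CPM in Mock and at 47.1, 46.0, 44.4 and 46.7 CPM in GC7 libraries. Within each group all 4 libraries were close, with coefficients of variation of 1.68% and 2.56%. The mean fell from 76.0 ± 1.27 to 46.1 ± 1.18 CPM, which is a log2 fold change of -0.72 (SE 0.0552, adjusted p = 3.96e-07, edgeR). *Fads2* (ENSMUSG00000024665, chromosome 19, 10062765 to 10101746, minus strand) was at 187, 188, 175 and 182 CPM in Mock and at 49.0, 42.3, 45.3 and 47.8 CPM in GC7 libraries. No library stood apart, and the lowest Mock library was well above the highest GC7 library. The mean fell 3.96-fold, from 183 ± 5.94 to 46.1 ± 2.99 CPM, which is a log2 fold change of -1.99 (SE 0.0644, adjusted p = 1.99e-10, edgeR).

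The regulator *Srebf1* (ENSMUSG00000020538, chromosome 11, 60199089 to 60222581, minus strand) was itself lower. It was at 194, 202.5, 207 and 194 CPM in Mock and at 128, 125, 107 and 129.8 CPM in GC7 libraries. GC7 replicate 3 was the lowest, and every GC7 library lay below every Mock library. The mean fell from 199 ± 6.52 to 122 ± 10.3 CPM, which is a log2 fold change of -0.70 (SE 0.0686, adjusted p = 3.26e-06, edgeR). Exons of *Srebf1* share 109 bases with *Rai1* on the opposite strand, which was at 95.2 CPM in both groups. The counts are per gene and include all annotated transcripts of *Srebf1*, so the isoforms SREBP-1a and SREBP-1c were not separated.

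Across the 10 genes, Mock replicate 2 was the lowest Mock library for 6 genes (*Acly*, *Acaca*, *Fasn*, *Scd1*, *Scd2*, *Elovl6*) and the highest for 3 (*Acss2*, *Fads1*, *Fads2*). GC7 replicate 3 was the lowest GC7 library for 7 genes and the highest for *Acss2*. Both libraries also stood apart over all tested genes. A chi-square per degree of freedom, which grows as 2 libraries differ, was 32.2 to 35.6 for pairs with Mock replicate 2. Other Mock pairs gave 4.52 to 8.76. Pairs with GC7 replicate 3 gave 14.0 to 22.9, and other GC7 pairs gave 2.6 to 6.69. With both libraries left out, an alternative chosen after seeing the data, 9 genes were again lower and 0 higher by edgeR's test. *Fasn* then had a log2 fold change of -0.40 (adjusted p = 1.24e-05, edgeR), against -0.45 (adjusted p = 0.00759, edgeR) with all libraries. Leaving out the libraries farthest from their groups narrows the spread by itself, so this smaller p-value adds no support.

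Levels can be set against each other only per length, here as CPM per kilobase of exon sequence (all exons of a gene merged). In Mock cells *Scd2* was highest at 349 ± 36.9, followed by *Acly* at 87.3 ± 6.84, *Fads2* at 55.5 ± 1.80 and *Scd1* at 55.3 ± 5.16 CPM per kilobase. *Fasn* (37.0 ± 3.98), *Srebf1* (35.4 ± 1.16), *Elovl6* (17.5 ± 2.63) and *Fads1* (15.8 ± 0.265) came next, and *Acaca* (4.83 ± 0.782) and *Acss2* (3.47 ± 0.0702) were lowest. Neighbours in this order did not differ beyond their spread for *Fads2* and *Scd1*, *Fasn* and *Srebf1*, and *Elovl6* and *Fads1*. In GC7 cells *Scd2* (202 ± 13.7) and *Acly* (48.3 ± 4.62) kept ranks 1 and 2, while *Fads2* went from rank 3 to 5 (13.99 ± 0.907) and *Scd1* from rank 4 to 8 (5.60 ± 0.543 CPM per kilobase). Between *Acly* and *Fads2* stood *Fasn* at 27.0 ± 4.98 and *Srebf1* at 21.7 ± 1.83. *Elovl6* at 10.8 ± 1.21 and *Fads1* at 9.57 ± 0.245 lay between *Fads2* and *Scd1*. Below *Scd1* were *Acaca* at 4.77 ± 0.676 and *Acss2* at 0.931 ± 0.158. The pairs *Fasn* and *Srebf1*, *Elovl6* and *Fads1*, and *Scd1* and *Acaca* overlapped in GC7 cells. The order depends in part on the length used. Per kilobase of the longest transcript, *Acss2* (9.77) stood above *Acaca* (8.67) and *Srebf1* (46.4) above *Fasn* (40.35) in Mock cells, *Fads1* stood above *Elovl6* in both groups, and *Scd1* (5.67) fell to rank 9 in GC7 cells, below *Acaca* (8.56).

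**Figure D3:**
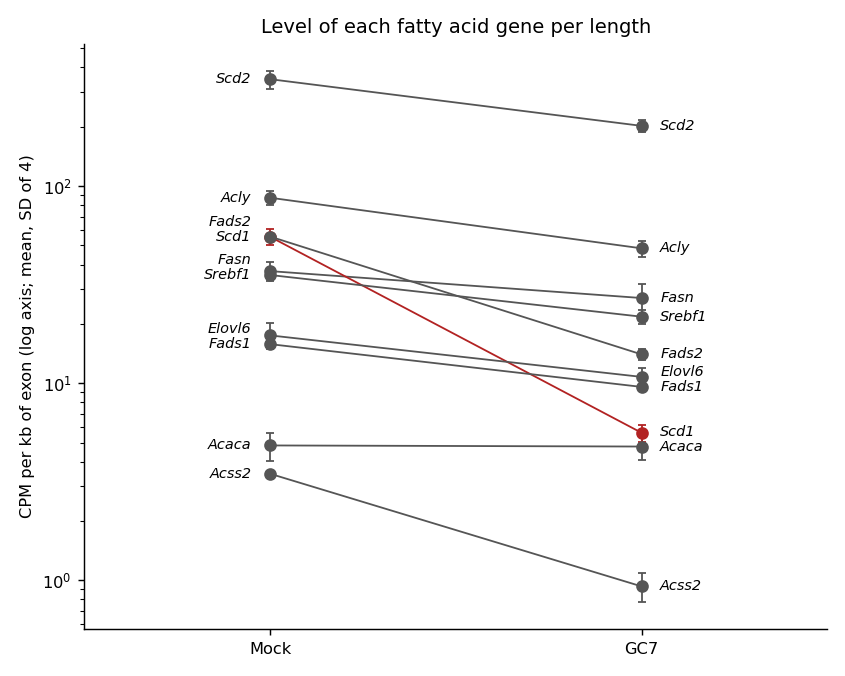
Mean CPM per kilobase of exon in Mock and GC7 cells on a log axis, with bars of 1 SD (n = 4) and 1 line per gene. *Scd1* (red) drops from 55.3 to 5.60 and crosses the lines of *Fasn*, *Srebf1*, *Elovl6* and *Fads1*, while *Scd2* remains at the top with 349 and 202.

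Ratios of related genes within a library, which no scaling between libraries can change, were compared for 5 pairs with a two-sided exact permutation test. Each of the 5 gave p = 0.0286, also after adjustment over the 5 pairs, and this is the smallest value that 4 against 4 libraries allow in the exact test. The log2 ratio of *Scd2* to *Scd1* per kilobase was 2.65 ± 0.0316 in Mock and 5.18 ± 0.113 in GC7 libraries, a rise of 2.52 that corresponds to 6.30 and 36.2 times as much *Scd2*. For *Fads2* to *Fads1* it went from 1.81 ± 0.0285 to 0.55 ± 0.0819, so *Fads2* was 3.51 times as abundant as *Fads1* in Mock and 1.46 times in GC7 cells. Such multiples depend on the gene length used, while the shift between groups does not. Per kilobase of the longest transcript, *Fads2* and *Fads1* were at 58.0 and 21.95 CPM in Mock and 14.6 and 13.3 CPM in GC7. The acetyl-CoA enzymes *Acss2* and *Acly* shifted towards *Acly*, with a log2 ratio of -4.65 ± 0.142 in Mock and -5.71 ± 0.374 in GC7 libraries. For *Fasn* to *Acaca* the log2 ratio went from 2.95 ± 0.107 to 2.49 ± 0.107. The smallest shift was for *Srebf1* to *Srebf2*, the sterol-directed member of the family, from -1.21 ± 0.0988 to -1.50 ± 0.0635, a difference of -0.29. In all 5 pairs the ranges of the groups were separate, which is what the smallest p of the exact test stands for. Among all tested single genes, 27.5% lay wholly lower and 28.1% wholly higher in GC7 libraries. The share among ratios of other genes was not computed, and the 5 pairs were chosen with earlier results of these data known.

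**Figure D4:**
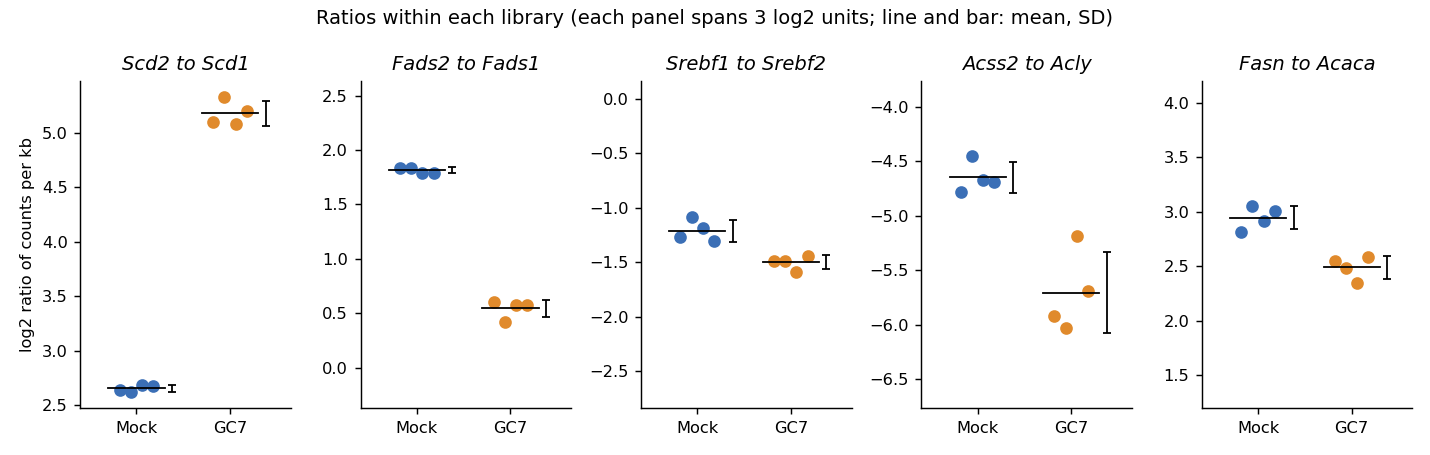
Log2 ratio of counts per kilobase for 5 gene pairs in every library, with group means and bars of 1 SD (n = 4), each panel spanning the same number of log2 units. The groups are separate in each panel, and *Scd2* to *Scd1* moves most, from 2.65 to 5.18.

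Genes that feed, regulate or use this pathway were read from 9 lists of 99 genes in all, each count to be set against the 23.5% of all tested genes called lower and the 23.0% called higher. Of 6 tested genes for precursor supply and regulators of synthesis, 4 were lower and 0 higher, with a median log2 fold change of -0.76. *Idh1*, the cytosolic isocitrate dehydrogenase that makes NADPH, fell 3.24-fold, from 24.5 ± 1.88 to 7.58 ± 0.935 CPM (adjusted p = 4.86e-08, edgeR). The citrate carrier *Slc25a1*, the mitochondrial acetyl-CoA synthetase *Acss1* and the second acetyl-CoA carboxylase gene *Acacb* fell by 0.96, 0.84 and 0.68 on the log2 scale. *Acacb*, at 4.32 ± 0.617 CPM in Mock, lost its call without Mock replicate 3, Mock replicate 4, GC7 replicate 1 or GC7 replicate 3 (adjusted p up to 0.023, edgeR). Mitochondrial fatty acid synthesis, a separate system with its own enzymes, had 1 of 6 tested genes higher and 0 lower, no more than those shares: *Ndufab1*, the mitochondrial acyl carrier protein, rose by 0.54. *Mecr* (0.26, adjusted p = 0.0162) and *Acsf3* (-0.32, adjusted p = 0.0471) did not pass in edgeR's test.

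Among 8 tested elongation genes other than *Elovl6*, 2 were higher and 1 lower, close to or below the 23.0% and 23.5% of all tested genes. The dehydratases *Hacd2* (0.80) and *Hacd3* (0.67) rose on the log2 scale, and the reductase *Tecr*, which acts in the same cycle, fell by 0.48. Of 4 other tested desaturases and electron carriers, 3 were lower and 1 higher: *Fads3* was at 4.41 ± 0.429 CPM in Mock and 1.28 ± 0.174 CPM in GC7, the cytochrome b5 gene *Cyb5a* fell by 0.59, its reductase *Cyb5r3* fell by 0.29, and *Cyb5b* rose by 0.22. *Fads3* passed the filter of 3 CPM through its Mock libraries alone, so a lower level in GC7 was built into its being tested, and it was tested in 4 of the 8 fits with 1 library left out. The calls of *Cyb5b* and *Cyb5r3* held in 2 and 3 of 8 fits with 1 library left out (adjusted p up to 0.0272 and 0.02, edgeR), lost for *Cyb5b* without any library other than Mock replicate 2 and GC7 replicate 3, and for *Cyb5r3* without Mock replicates 1 or 4 or GC7 replicates 2, 3 or 4.

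Of 9 tested genes for SREBP processing and lipogenic transcription factors, 4 were lower and 3 higher, with a median of -0.03, beside 23.5% and 23.0% of all tested genes. *Insig1*, whose product retains SREBP in the endoplasmic reticulum, fell 2.28-fold, from 205 ± 6.74 to 89.8 ± 1.81 CPM (adjusted p = 4.66e-09, edgeR). *Srebf2*, the LXR-beta gene *Nr1h2* and *Mlx* fell by 0.42, 0.50 and 0.45 on the log2 scale, while the SREBP escort *Scap* (0.34), the protease *Mbtps2* (0.41) and *Mlxip* (0.41) rose. *Mlxip* lost its call without Mock replicate 1 (adjusted p = 0.0107, edgeR).

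All 11 sterol synthesis and uptake genes were lower, with a median of -0.93. The 5 that fell more than 2-fold were *Lss* (-1.54), *Hmgcs1* (-1.46), *Fdps* (-1.38), *Mvd* (-1.36) and *Fdft1* (-1.29), enzymes between acetyl-CoA and lanosterol. Of these, *Fdps* had a low level, 8.20 ± 0.431 CPM in Mock and 3.14 ± 0.417 CPM in GC7, close to the filter of 3 CPM.

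Genes for fatty acid activation and uptake had 5 of 8 tested members lower and 1 higher, with a median of -0.73. The fatty acid transporter *Slc27a1* fell from 34.7 ± 2.75 to 10.5 ± 1.90 CPM (log2 fold change -1.73, adjusted p = 1.14e-07, edgeR), and the acyl-CoA synthetase *Acsl3* fell with it (-1.54). A further synthetase, *Acsl6*, counted among the 5, was at 3.83 ± 0.538 CPM in Mock and 1.68 ± 0.368 CPM in GC7. It passed the filter through its Mock libraries alone, so its being lower was built in, and it was tested in 4 of the 8 fits with 1 library left out. *Slc27a4* and *Fabp5* fell by 0.79 and 0.68, and *Acsl5* rose by 0.21, a call that held in 2 of 8 fits with 1 library left out (without Mock replicate 2 or GC7 replicate 3, adjusted p up to 0.0372 in the others, edgeR). In glycerolipid assembly, 4 of 10 tested genes were lower and 1 higher, with a median of -0.15, beside 23.5% and 23.0% of all tested genes. *Dgat1*, which makes triacylglycerol, fell 2.33-fold, from 62.3 ± 4.98 to 26.8 ± 2.60 CPM (adjusted p = 1.85e-07, edgeR). *Dgat2* (-0.62), *Lpin1* (-0.44) and *Agpat2* (-0.38) were also lower and *Agpat5* higher (0.37), and with 1 library left out each of these 4 lost its call at least once (adjusted p at most 0.0158, edgeR). The omitted libraries were Mock replicates 1, 3 and 4 and GC7 replicate 4 for *Dgat2*, Mock replicates 3 and 4 and GC7 replicates 1, 2 and 4 for *Lpin1*, GC7 replicate 1 for *Agpat2*, and Mock replicates 1 and 3 and GC7 replicate 4 for *Agpat5*. Of 19 tested fatty acid oxidation genes, 11 were lower and 0 higher, with a median of -0.35. None of the 11 changed more than 2-fold, whereas 5.31% of all tested genes fell by more than that. With 1 library left out, 10 to 12 genes were lower. *Acadm*, counted among the 11, held its call in 3 of 8 such fits (adjusted p up to 0.0344, edgeR). With all libraries, the smallest adjusted p-values of this list were for *Acadl*, an acyl-CoA dehydrogenase (log2 fold change -0.76, 3.42e-07), and *Cpt1a*, the carnitine acyltransferase that admits fatty acids to mitochondria (-0.72, 8.23e-07), both by edgeR.

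**Figure D5:**
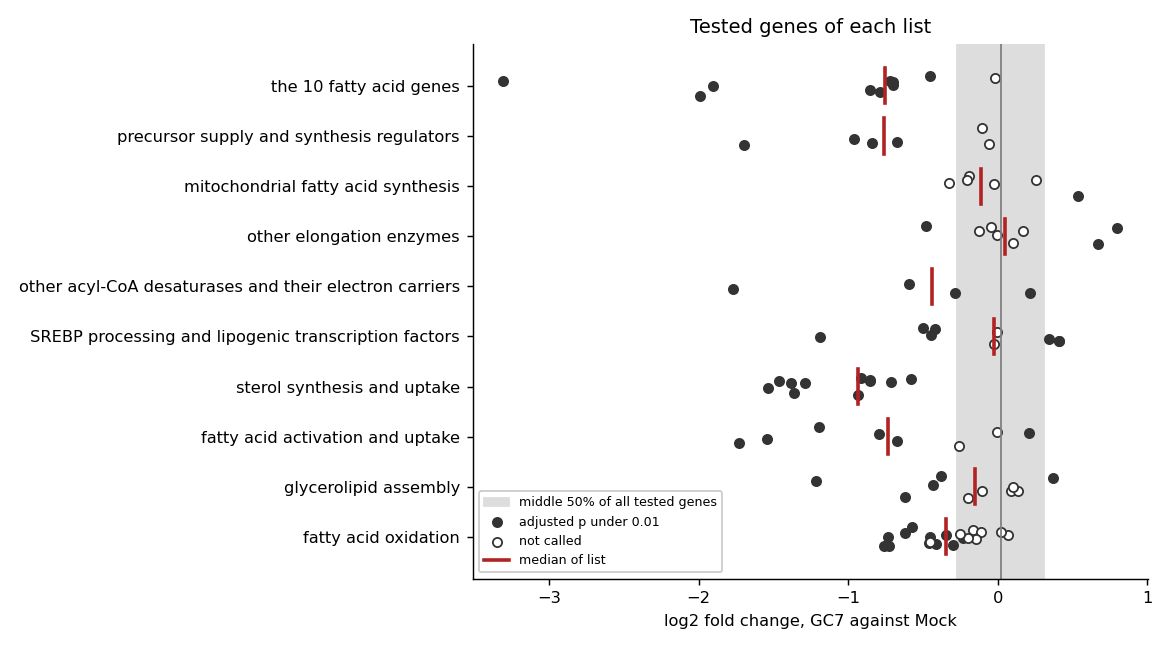
Log2 fold change of every tested gene in the 10 fatty acid genes and in each of 9 related lists, with filled points for adjusted p under 0.01, a red line at each list's median and a grey band over the middle 50% of all tested genes, from -0.28 to 0.31. Medians to the left of the band are those of the 10 genes (-0.75), precursor supply (-0.76), sterol synthesis (-0.93), fatty acid activation (-0.73) and fatty acid oxidation (-0.35). That of other desaturases and electron carriers (-0.44) also lies there, and those of the other 4 lists lie within the band. The activation list includes *Acsl6*, and the desaturase and carrier list includes *Fads3*. Both genes passed the filter through Mock libraries alone, so their being lower was built in.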

How the data were processed

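The authors deposited raw read counts per gene, 1 table per library, for 4 Mock and 4 GC7 libraries. Per the study's methods, paired-end reads were trimmed with Cutadapt, aligned to GRCm38 with STAR and counted with featureCounts. Strand setting and multi-mapping reads are not given in the sources used here. Groups and replicate numbers came from the sample titles.

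Genes above 3 CPM in at least 4 libraries were fitted with edgeR (version 4.0.16, R 4.3.3): TMM factors, group as the only term, quasi-likelihood F test, Benjamini-Hochberg adjustment over 11189 genes, threshold 0.01. The genes, lists and tests were chosen with earlier results of these data known. All 10 genes are named. Of other lists, genes called with more than a 2-fold change are named, otherwise up to 3 with the smallest adjusted p. Other called genes named from lists, and those printed as overlaps or copies, were chosen after their values were seen. Ratios used exact permutation tests (scipy 1.17.1). Near copies were matches of at least 200 bases at 90% identity (BLAST 2.17.0). Gene positions and exons came from GENCODE M21, which holds all 55536 identifiers.

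Alternatives were RLE factors, library totals, no filter, filterByExpr, DESeq2 (version 1.42.0), limma-voom (limma 3.58.1), TMM without mitochondrial genes, a threshold of 0.05, the replicate block, longest-transcript lengths and omission of each library, and, added later, of 2 libraries together. Counts carry no molecular identifiers. *Hsd17b8* was not matched. A gene that the naming rule selects is not reported here.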

Additional observations from a re-analysis of the deposited data

Results flagged for a closer look

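In 4 of 30 groups of 4 libraries (each gene or ratio in Mock and in GC7), 1 library stood apart from the other 3, measured as its gap to the nearest library over the range of the group, beyond Dixon's 95% critical value. Were the groups independent, chance alone would flag about 1 in 20, or 1.5 here. They are not, as all are read from the same libraries and the ratios reuse these genes, so the 4 flags are not separate events. Mock replicate 2 was the low library for *Scd2* (gap ratio 0.986), *Elovl6* (0.851) and *Scd1* (0.833), and Mock replicate 3 was the low library for *Fads1* (0.852). For all 4 genes every Mock library, including the one apart, was above every GC7 library.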

How the results depend on the processing

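No alternative moved the number of genes lower among the 10 beyond 8 to 9, or the number higher above 0. *Acaca* turned sign with library totals (0.075) and lay between -0.12 and 0.071 when 1 library was left out. *Fasn* missed the threshold with library totals (-0.36, adjusted p = 0.0337, edgeR) and lay between -0.53 and -0.33 when 1 library was left out. Library totals moved the median of all genes from 0.02 to 0.11. Among lists, mitochondrial synthesis had 2 higher (library totals, both doubted libraries out, threshold 0.05) and 1 lower (no filter, threshold 0.05). Other desaturases and electron carriers had 0 higher with filterByExpr, and with libraries left out 0 to 1 higher and 1 to 3 lower. Activation had 0 higher with RLE factors and 0 to 1 with libraries left out. Glycerolipid genes had 2 higher (library totals, both out, threshold 0.05) and 1 lower (library totals), and 0 to 2 higher and 2 to 4 lower with libraries left out. Per kilobase of the longest transcript, Mock levels moved to 104 for *Acly*, 9.77 for *Acss2*, 8.67 for *Acaca*, 21.95 for *Fads1*, 58.0 for *Fads2* and 46.4 for *Srebf1*.

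With 1 library left out, no ratio could reach the threshold (smallest exact p = 0.0571), and their log2 differences were 2.47 to 2.55 for *Scd2* to *Scd1*, -1.29 to -1.23 for *Fads2* to *Fads1*, -0.32 to -0.25 for *Srebf1* to *Srebf2*, -1.23 to -0.95 for *Acss2* to *Acly* and -0.50 to -0.40 for *Fasn* to *Acaca*. The cause of these moves was not tested.

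The labels do not say whether same-numbered libraries share a donor. Their deviations from the group mean correlated from -0.20 to 0.29, and 4 of 8 libraries correlated best with their own number. With 4 libraries a group, this cannot show whether the libraries were paired. The replicate block changed no call among the 10 genes (*Fasn* adjusted p = 0.00637, edgeR). Among list genes it removed the calls of *Cyb5b* and *Acsl5* (leaving 0 higher among desaturases and carriers and in activation), *Dgat2* (3 glycerolipid genes lower) and *Acadm*. In the same pairing the ratio differences were 2.52, -1.27, -0.29, -1.06 and -0.45 in the order of the pairs above, with an exact p of 0.125, the smallest that 4 pairs allow.

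All values rest on 4 libraries a group, of unnamed donors, and on counts per gene, so these data hold no values for single transcripts, proteins or lipids. The study separately measured newly made proteins in GC7-treated and Mock cells by mass spectrometry, and those values were not used here. *Acss2*, with 174 counts in its lowest library, has the fewest counts of the 10 genes.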
